A study of Homo sapiens with 6 samples.

Results

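The 10 genes described here encode the core proteins that make and use miRNAs: DROSHA, DGCR8, XPO5, DICER1, TARBP2, AGO1, AGO2, AGO3, AGO4 and TNRC6A. They were chosen by gene symbol from the 20026 genes of the deposited table, and all 10 were listed and passed the filter on low counts. Their mRNA levels were read from RNA-seq of HepG2, an established human hepatoblastoma line, in 3 groups with 2 libraries each. Each KO group, miR-23a KO or miR-27a KO, consisted of HepG2 cells edited with a Cas9 vector, PX458, carrying paired guides on either side of mature miR-23a or miR-27a. The Scr group received the empty PX458 vector. Edited cells were sorted singly by GFP and grown into clones, and the labels do not say whether the libraries of a group came from 1 clone or several, so clone and genotype cannot be told apart. miR-23a and miR-27a are cut from the same primary transcript as a further miRNA, miR-24, and loss of the targeted miRNA cannot be told apart here from a change in the others. None of these miRNAs was measured in these libraries, and the miRNA host transcript was not analysed here, so the labels were not checked against their targets.

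A miRNA is cut from its primary transcript in the nucleus by the Microprocessor, in which DROSHA is the nuclease and DGCR8 the RNA-binding partner. Exportin-5 carries the hairpin to the cytoplasm, DICER1 with its partner TARBP2 trims it to a duplex, and an Argonaute protein keeps a single strand as its guide. The loaded Argonaute finds target mRNAs mainly through the seed of the miRNA, and TNRC6A, a GW182 scaffold protein, joins it to the deadenylases that shorten the target's tail.

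The mature miRNAs targeted in the KO groups and their paralogs are shown first because their seeds define the sites that were searched for in the 10 genes. Sequences are from RefSeq (GRCh38.p14), written 5′ to 3′, and capitals mark the seed, bases 2 to 8.
miR-23a-3p: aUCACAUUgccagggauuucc
miR-23b-3p: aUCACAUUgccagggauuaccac
miR-27a-3p: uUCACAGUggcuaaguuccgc
miR-27b-3p: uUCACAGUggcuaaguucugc
The mature miR-23a-3p lies on the minus strand at chr19:13836595-13836615 and miR-27a-3p at chr19:13836447-13836467. Their paralogs miR-23b-3p and miR-27b-3p, on the plus strand of chromosome 9, share the same seeds and were not targeted by the guides.

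Sites complementary to bases 2 to 8 were searched for in each gene within its longest annotated 3′-UTR (GENCODE release 29, GRCh38). AATGTGA, the miR-23a-3p site, was present in 4 of the 10 genes, and ACTGTGA, the miR-27a-3p site, in 5 of the 10. Over the 15915 genes with an annotated 3′-UTR the shares were 19.3% and 16.7%. Among the 2643 genes whose 3′-UTR was at least as long as the median of the 10 genes (3345 bases), they were 48.6% and 42.7%. AGO2, whose 3′-UTR spans 11888 bases, held 4 sites of each kind. AGO3, with a 3′-UTR of 16755 bases, held 3 miR-23a-3p sites and 1 miR-27a-3p site. TNRC6A held 3 miR-23a-3p sites and no miR-27a-3p site, and DICER1 held 1 miR-23a-3p site. DROSHA, DGCR8 and XPO5 held 1 miR-27a-3p site each, while TARBP2, AGO1 and AGO4 held neither. A match of 7 bases is a description of the sequence and does not show that a site is used. The sites of TNRC6A, DICER1, DROSHA, DGCR8 and XPO5 are printed with the 7 matched bases in capitals, and those of AGO2 and AGO3 are given only as the counts above.
TNRC6A, miR-23a-3p site at chr16:24823987-24823993, plus strand: gccaatattatAATGTGAaaaggtatcta
TNRC6A, miR-23a-3p site at chr16:24825372-24825378, plus strand: tttacaaatagAATGTGAttgtaaaatgt
TNRC6A, miR-23a-3p site at chr16:24825618-24825624, plus strand: caccctgaaatAATGTGAgaacaatggga
DICER1, miR-23a-3p site at chr14:95087858-95087864, minus strand: cctgtgattgcAATGTGAgaccgaatgta
DROSHA, miR-27a-3p site at chr5:31401386-31401392, minus strand: cttgctcagtaACTGTGActgttgtctat
DGCR8, miR-27a-3p site at chr22:20111555-20111561, plus strand: atagtcatttgACTGTGActgttgccctt
XPO5, miR-27a-3p site at chr6:43522881-43522887, minus strand: tcacaacctgtACTGTGAgtccattctag

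The libraries held between 14405302 and 16515321 counts and between 16559 and 17482 detected genes. The miR-23a KO pair stood apart from the others before any comparison was made. Across 13327 tested genes with an annotated transcript, the deviation of each gene from its mean over the 6 libraries followed transcript length with Spearman's rho of -0.41 in miR-23a KO replicate 1 and 0.39 in replicate 2. With GC content the same values were 0.51 and -0.64. The other libraries gave -0.18 and 0.06 for length in Scr replicates 1 and 2, and 0.16 and 0.15 in miR-27a KO. With GC content Scr replicate 1 gave 0.49 and Scr replicate 2 gave -0.04, while the miR-27a KO replicates gave -0.20 and -0.24. Genes are not independent replicates, so these are descriptions of the libraries with no p-value. The libraries of a pair differed by over 2-fold in 47.1% of 14164 tested genes in miR-23a KO, in 8.81% in Scr and in 3.21% in miR-27a KO. The miR-27a KO pair was the closest to counting noise but above it, with a mean chi-square of 2.49 per gene. The mean was 30.3 in Scr and 309 in miR-23a KO. The median in miR-27a KO was 1.81 times that expected from counting alone. P-values therefore measure only the spread between these libraries, which may be technical. These trends are described here because the median transcript of the 10 genes is 7777 bases long. That of all genes with an annotated transcript is 3052 bases.

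Levels are given as counts relative to library size (CPM) after TMM scaling. Per kilobase of the longest annotated transcript, and as mean ± SD of the 2 Scr libraries, XPO5 was the most abundant of the 10 at 34.2 ± 2.69 CPM per kilobase, followed by TARBP2 at 21.4 ± 3.63. The Microprocessor genes came next, DGCR8 at 8.91 ± 0.0389 and DROSHA at 7.92 ± 1.21, and did not differ beyond their spread. AGO1 stood at 3.15 ± 0.246, TNRC6A at 2.13 ± 0.478, DICER1 at 1.92 ± 0.407 and AGO2 at 1.74 ± 0.0287, with the range of DICER1 overlapping those of both TNRC6A and AGO2. AGO4 at 0.743 ± 0.0175 and AGO3 at 0.450 ± 0.111 were lowest, 46.0-fold and 76.0-fold below XPO5. The Argonaute values depend on very long annotated 3′-UTRs, which set the lengths of 13708 bases for AGO1 and 19687 bases for AGO3.

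**Figure D1:**
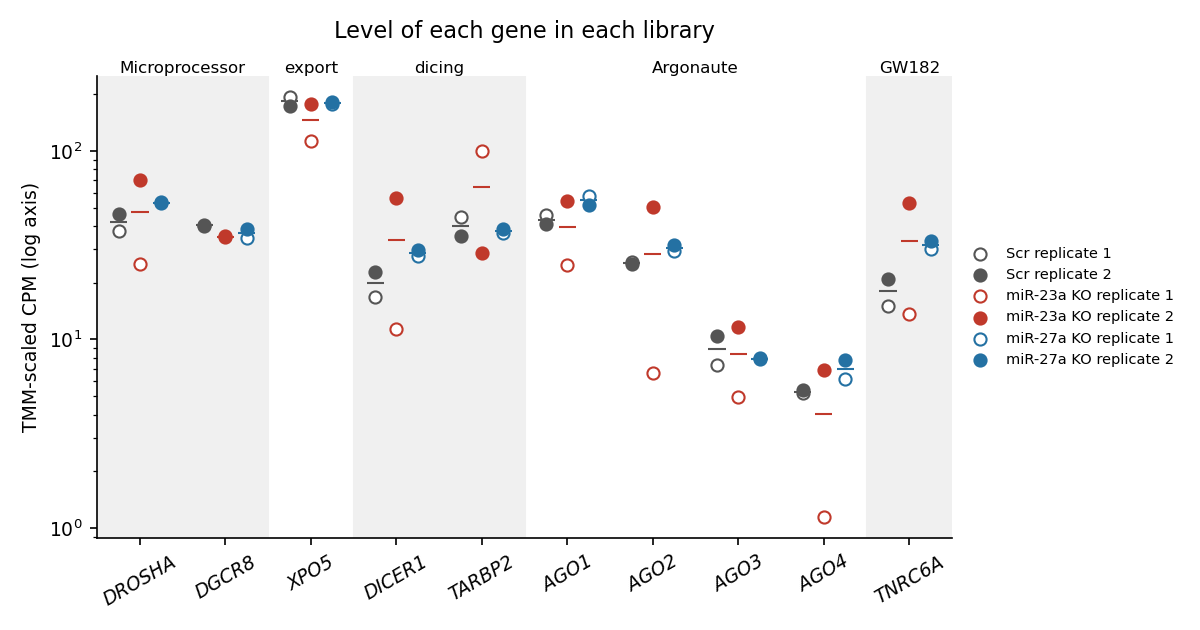
TMM-scaled CPM on a log axis for each of the 10 genes in the 6 libraries, ordered by role, with open circles for replicate 1, filled circles for replicate 2 and short lines for group means. The miR-23a KO libraries lie far apart in 8 genes, from 6.65 to 50.4 CPM for AGO2, while the Scr and the miR-27a KO libraries lie close together.

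DROSHA, the nuclease that makes the first cut, was at 37.5 and 46.5 CPM (Scr), 25.1 and 69.9 (miR-23a KO), then 52.7 and 53.7 (miR-27a KO) (replicates 1 and 2 in order). Its miR-27a KO values both exceeded the Scr values, and those of miR-23a KO fell on either side of Scr. DGCR8, its double-stranded RNA-binding partner, was at 40.3 and 40.1 CPM (Scr), 34.8 and 35.4 (miR-23a KO), then 34.5 and 38.5 (miR-27a KO). It was the only one of the 10 with both libraries of each KO group below Scr. Taken separately, 13.7% (miR-23a KO) and 31.0% (miR-27a KO) of all genes lay below Scr in this way. With GC content and length offsets its log2 fold changes against Scr were 0.0034 and 0.038. DGCR8 shares 12 exonic bases with TRMT2A and 526 with an antisense gene absent from the table, both on the opposite strand, and the strand setting of the authors' counting is not given in the sources used here.

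XPO5, which encodes Exportin-5, was at 194 and 173 CPM (Scr), 113 and 178 (miR-23a KO), then 178 and 181 (miR-27a KO). Only miR-23a KO replicate 1 lay outside the range of Scr. XPO5 shares 348 exonic bases with POLR1C on the opposite strand, so part of its reads cannot be told apart from those of POLR1C if strand was not used.

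DICER1, the nuclease that cuts the loop from the hairpin, was at 16.9 and 22.8 CPM (Scr), 11.4 and 56.0 (miR-23a KO), then 27.7 and 29.8 (miR-27a KO). Its miR-23a KO libraries were 4.92-fold apart, a larger rise from replicate 1 to replicate 2 than in 96.3% of all tested genes. TARBP2, the double-stranded RNA-binding partner of DICER1, was at 44.8 and 35.2 CPM (Scr), 99.6 and 28.9 (miR-23a KO), then 36.8 and 38.3 (miR-27a KO). TARBP2 has the shortest transcript of the 10 (1867 bases) and the highest GC content (60.8%), and it alone was higher in miR-23a KO replicate 1 than in replicate 2, by 3.45-fold. DICER1 has 10331 bases and 39.2% GC. The DICER1 and TARBP2 values moved in opposite directions between these libraries.

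AGO4, AGO1 and AGO3 follow each other on the plus strand of chromosome 1, with 11917 bases between the annotated ends of AGO4 and AGO1 and 189 between AGO1 and AGO3. AGO1 shares 396 exonic bases with a noncoding gene on the opposite strand that is absent from the table. Argonaute genes are paralogs, so reads from shared stretches could have been divided between them by the authors' estimation. AGO1, an Argonaute that binds guide strands without slicing efficiently, was at 45.6 and 40.8 CPM (Scr), 24.8 and 54.4 (miR-23a KO), then 57.8 and 51.9 (miR-27a KO). AGO2, the Argonaute with slicer activity, was at 25.7 and 25.1 CPM (Scr), 6.65 and 50.4 (miR-23a KO), then 29.4 and 31.6 (miR-27a KO). The Scr libraries were almost equal for AGO2 while its miR-23a KO libraries were 7.58-fold apart, above the rise between replicates of 98.8% of tested genes. AGO3 was at 7.32 and 10.4 CPM (Scr), 4.97 and 11.7 (miR-23a KO), then 7.87 and 7.94 (miR-27a KO). AGO4, for which the lowest count was 15, was at 5.20 and 5.37 CPM (Scr), 1.15 and 6.86 (miR-23a KO), then 6.18 and 7.82 (miR-27a KO). All 4 Argonaute genes had 1 miR-23a KO library below and 1 above both Scr libraries, and all but AGO3 had both miR-27a KO libraries above Scr. Over all genes tested the shares with these patterns were 47.5% and 33.4%.

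TNRC6A, the GW182 protein that recruits deadenylases to the Argonaute complex, was at 15.1 and 20.8 CPM (Scr), 13.6 and 52.8 (miR-23a KO), then 30.1 and 33.4 (miR-27a KO). Its counts were 221 and 310 in Scr and 497 and 555 in miR-27a KO. The lower miR-27a KO library therefore stood above the higher Scr library, and 1 of the miR-23a KO libraries fell below Scr.

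In total, 8 of the 10 genes had their miR-23a KO libraries on opposite sides of both Scr libraries, as had 47.5% of 13787 tested genes. In 7 of the 10, replicate 1 was the lower library and replicate 2 the higher (22.2% of tested genes), and TARBP2 had the opposite order (25.2%). The median log2 difference between replicate 2 and replicate 1 over the 10 genes was 1.34 in miR-23a KO, 0.02 in Scr and 0.08 in miR-27a KO. Over all tested genes the medians were 0.12, 0.008 and -0.003 in the same order. After the trend of each library with GC content and length was subtracted, the median of the 10 genes in miR-23a KO was 0.32. The differences left after subtraction were 1.43 for AGO2, 1.17 for AGO4, 0.73 for DICER1 and -0.69 for TARBP2. Those of AGO1, AGO3 and XPO5 became negative at -0.34, -0.45 and -0.015. The number of the 10 genes over 2-fold apart in miR-23a KO went from 8 to 2. Of all tested genes 47.1% were over 2-fold apart before subtraction, and the share after it was not computed. The SD of the log2 difference over all genes went from 1.28 to 0.890.

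**Figure D2:**
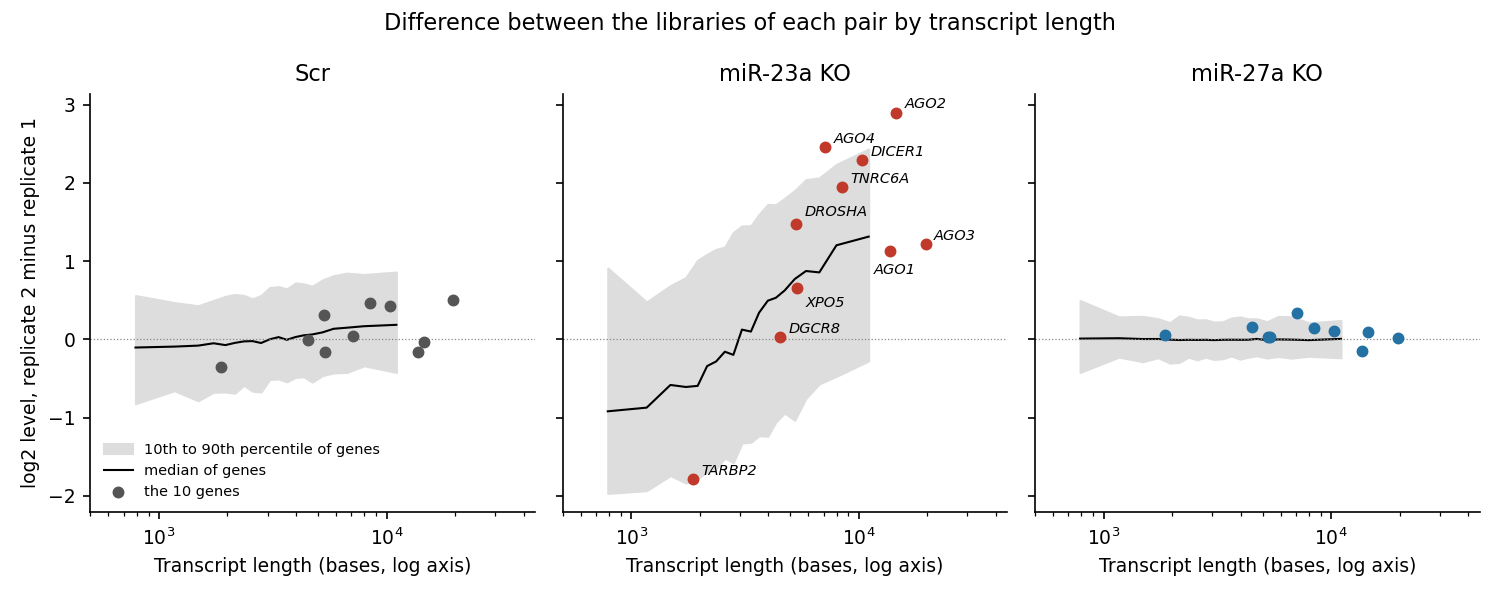
Log2 level in replicate 2 minus replicate 1 against transcript length on a log axis, with a panel for each group, a black line for the median and grey for the 10th to 90th percentile of genes in 20 length bins, and points for the 10 genes. In miR-23a KO the median rises with length and the points run from -1.78 for TARBP2 to 2.90 for AGO2, whereas the points of Scr and miR-27a KO lie near 0.

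In the comparison of miR-27a KO with Scr, TNRC6A alone among the 10 genes passed the test, higher in miR-27a KO by 1.74-fold (log2 fold change 0.80 ± 0.19 SE, adjusted p = 0.0490 by the edgeR quasi-likelihood test with Benjamini-Hochberg adjustment over 13821 genes), and both libraries were above both Scr libraries. TNRC6A has no miR-27a-3p site in the UTR searched. That is 1 of 10 higher against 4.88% of all genes (674), and 0 of 10 lower against 9.12% (1260), so the count is not particular to these genes. With the edgeR adjusted p, no member met the study's thresholds of over 1.5-fold and adjusted p under 0.001, which 0.0289% of genes (4) met. The paper, which names no model for its q-values, reports far more genes past these thresholds in each KO group.

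DICER1 was next with a log2 fold change of 0.52 ± 0.18 (SE), and its adjusted p of 0.119 from edgeR did not pass. AGO4 stood at 0.39 ± 0.24, AGO1 at 0.33 ± 0.12, DROSHA at 0.32 ± 0.13 and AGO2 at 0.24 ± 0.12, with adjusted p from edgeR between 0.128 (AGO1) and 0.328 (AGO4). XPO5 (-0.05 ± 0.09), TARBP2 (-0.11 ± 0.15), DGCR8 (-0.16 ± 0.11) and AGO3 (-0.18 ± 0.24) had values below 0 and did not pass. DROSHA, DICER1, AGO1, AGO2, AGO4 and TNRC6A, 6 of the 10, had both miR-27a KO libraries above both Scr libraries, as had 33.4% of all genes, and DGCR8 had both below, as had 31.0%. The median log2 fold change of the 10 genes was 0.28, against 0.01 for all genes tested. With GC content and length as offsets the median of the 10 was 0.17, DGCR8 moved to 0.04, TARBP2 to 0.21, AGO1 to 0.14, AGO2 to 0.05, AGO3 to -0.38, AGO4 to 0.25, XPO5 to -0.02 and TNRC6A to 0.64, and the calls over all genes were 1058 higher and 1007 lower.

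The TNRC6A call lay at the edge of the threshold. Its log2 fold change stayed between 0.60 and 1.05 in every alternative run, but its adjusted p was 0.182 by edgeR without miR-27a KO replicate 1, 0.319 without replicate 2, 0.0850 with no filter on low counts and 0.980 with all 6 libraries in the model, and lay between 0.0106 and 0.0482 in the other 6 alternatives that kept all 4 libraries. The fit with no filter called 5.26% of all genes and that with all 6 libraries 0.452%, against 13.99% as tested. These losses were therefore not particular to TNRC6A. The cause of these losses was not tested. Without Scr replicate 1 or 2 it was 0.00392 or 0.000295 by edgeR. The same fits called 3 (TNRC6A, DICER1 and AGO1) and 6 of the 10 genes, and 39.1% and 50.1% of all genes.

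**Figure D3:**
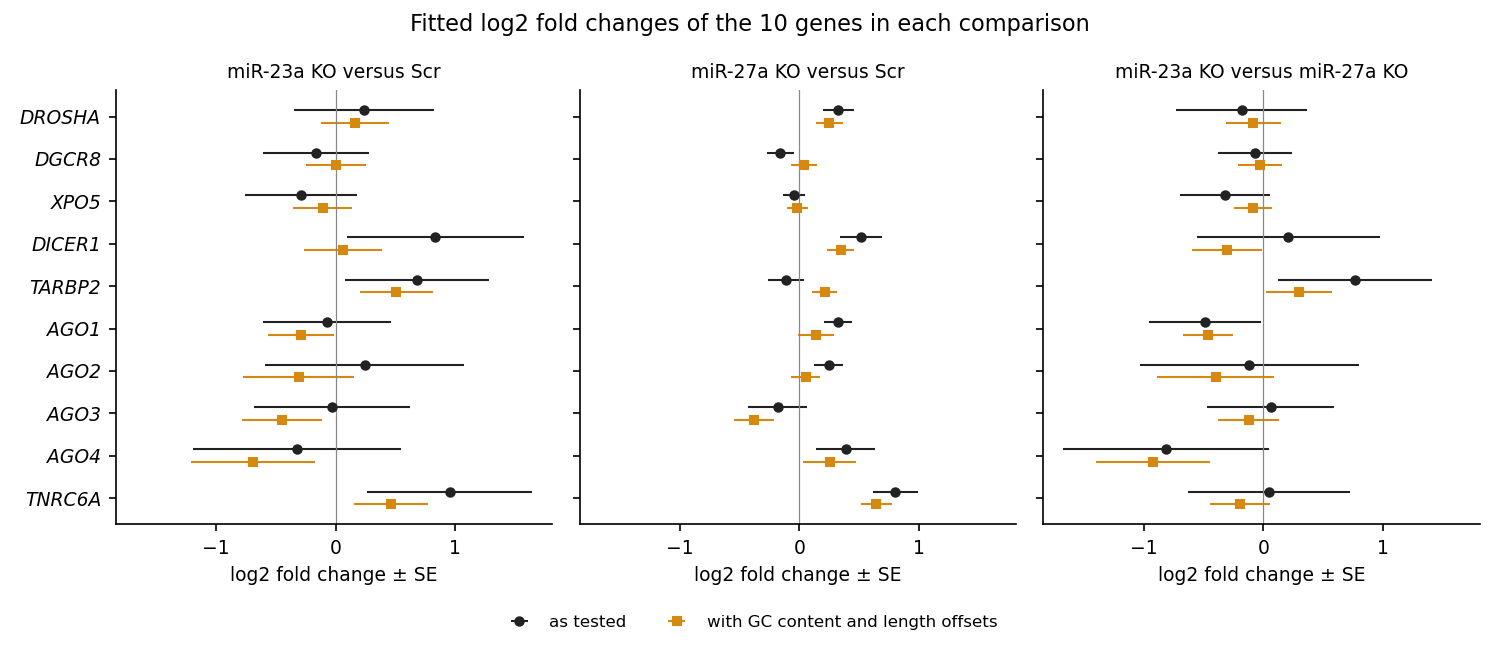
Fitted log2 fold change ± SE of each gene in the 3 comparisons, each from 2 libraries a group, as tested (black circles) and with GC content and length offsets (orange squares), on the same horizontal scale. The standard errors are wide wherever miR-23a KO takes part, 0.83 for AGO2 against Scr, and narrow in miR-27a KO versus Scr, 0.12 for AGO2.

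In the comparison of miR-23a KO with Scr none of the 10 genes passed. The edgeR quasi-likelihood test called 0 of 10 higher (0.0% of all 13787 genes) and 0 of 10 lower (0.0%), and 0 at the study's thresholds (0.0%). At an unadjusted p under 0.05 there were 0 of the 10 and 332 of all genes. DESeq2 and limma also called 0 of the 10, against 0.457% and 0.0% of all genes. TNRC6A had the largest log2 fold change at 0.95 ± 0.69 (SE), followed by DICER1 at 0.83 ± 0.74 and TARBP2 at 0.68 ± 0.60. AGO2 stood at 0.24 ± 0.83, DROSHA at 0.24 ± 0.59, AGO3 at -0.03 ± 0.65, AGO1 at -0.07 ± 0.53, DGCR8 at -0.16 ± 0.44, XPO5 at -0.29 ± 0.47 and AGO4 at -0.32 ± 0.87. DGCR8 was the only gene whose groups did not overlap, lower in both miR-23a KO libraries, which held for 13.7% of all genes, and 0 of the 10 were higher without overlap against 9.91%. The median of the 10 genes was 0.10 and that of all genes 0.16. The former turned to -0.16 with limma and -0.05 with GC content and length offsets.

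These values depended on which miR-23a KO library was kept. With replicate 2 as the only miR-23a KO library, AGO2 was at 0.99, AGO4 at 0.38, DICER1 at 1.495 and TNRC6A at 1.56, and DICER1 and TNRC6A, 2 of the 10 genes, passed in edgeR, as did 3.95% of all genes. With replicate 1 as the only library, AGO2 was at -1.96, AGO4 at -2.22, DICER1 at -0.82 and TNRC6A at -0.42, and 4 of the 10 passed, AGO2, AGO4 and XPO5 lower and TARBP2 higher, as did 18.5% of all genes. The lone library is assumed in these fits to vary like the Scr pair. With GC content and length as offsets DICER1 stood at 0.06, AGO1 at -0.29, AGO2 at -0.31, AGO3 at -0.45, AGO4 at -0.69, XPO5 at -0.11, DGCR8 at 0.0034 and TNRC6A at 0.46, and 0 of the 10 passed.

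The groups compared above share the Scr libraries, so the KO groups were also compared with each other. The edgeR test called 0 of the 10 genes higher (0.0% of 13841) and 0 lower (0.0%) in miR-23a KO than in miR-27a KO, and 0 at the study's thresholds (0.0%). At an unadjusted p under 0.05 there were 0 of the 10 and 1208 of all genes. DESeq2 and limma called 0 of the 10, against 3.45% and 0.152% of all genes. The values ran from -0.81 ± 0.86 (SE) for AGO4 to 0.77 ± 0.65 for TARBP2, and TNRC6A was at 0.05 ± 0.68. None of the 10 genes had groups without overlap, against 19.7% of all genes higher and 19.9% lower. With GC content and length offsets 0 of the 10 passed, with TARBP2 at 0.30, XPO5 at -0.08, DROSHA at -0.08, DGCR8 at -0.03, AGO2 at -0.40, AGO3 at -0.12, DICER1 at -0.30 and TNRC6A at -0.19. Without miR-23a KO replicate 1 edgeR called 6 of the 10, 5 of them higher, and 57.3% of all genes. Without replicate 2 it called 9 of the 10, 8 of them lower, and 68.01% of all genes. Here too the remaining library is assumed to vary like the other pair, and for DROSHA, DICER1, TARBP2, AGO2, AGO3 and TNRC6A (6 of the 10) the order of the KO groups turned with the library left out. These 6 genes had their miR-23a KO libraries on opposite sides of both miR-27a KO libraries, as had 47.0% of 13841 tested genes.

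The wider machinery was read from 9 lists of 72 genes, of which 68 were tested in each comparison. In miR-27a KO versus Scr the edgeR test called 9 higher (13.2%, against 4.88% of all genes) and 2 lower (2.94%, against 9.12%) of the 68, and 0 at the study's thresholds. DESeq2 called 13 and limma 12 there, against 16.2% and 14.1% of all genes. With GC content and length offsets edgeR called 6 higher and 1 lower of the 68, against 8.10% and 7.71% of all genes. In the other comparisons, miR-23a KO versus Scr and miR-23a KO versus miR-27a KO, edgeR without offsets called 0 of 68. There were 3 and 1 at an unadjusted p under 0.05. DESeq2 called 0 and 1, against 0.457% and 3.45% of all genes, and limma 0 and 0, against 0.0% and 0.152%. The median log2 fold change of the 68 was 0.17 in miR-27a KO versus Scr and 0.14 in miR-23a KO versus Scr. Medians of all genes were 0.01 and 0.16 in the same order. In miR-23a KO versus miR-27a KO the median of the 68 was -0.09, against 0.11 for all genes. No list was tested as a set. The shares of all genes in miR-27a KO versus Scr, 4.88% higher and 9.12% lower, are the background for the count of each list below.

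Microprocessor cofactors had the most calls in miR-27a KO, 4 of 8 higher and 0 lower, against 4.88% and 9.12% of all genes. NCBP2, the small subunit of the nuclear cap-binding complex, was 1.87-fold higher (log2 0.90 ± 0.12 SE), HNRNPA1, an RNA-binding protein that remodels some primary miRNA hairpins, 1.37-fold (0.46 ± 0.08), and DDX5, a helicase of the large Microprocessor complex, 1.32-fold (0.40 ± 0.08). NCBP2 had 404 and 424 counts (Scr), 246 and 686 (miR-23a KO), then 813 and 949 (miR-27a KO). SRSF3, a splicing factor that marks primary miRNAs for cleavage, was the fourth at 0.43 ± 0.09. With GC content and length offsets only NCBP2 of the 4 was still called, at 0.74, while HNRNPA1 (0.28), DDX5 (0.28) and SRSF3 (0.19) were not. HNRNPA1 was also the most abundant gene of the list by count. Among export and dicing cofactors 1 of 4 was called, PRKRA, a further protein partner of DICER1, lower by log2 -0.44 ± 0.08. RAN, the GTPase that drives Exportin-5 transport, was the most abundant and stood at -0.02 ± 0.09, and at -0.18 with the offsets.

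Downstream of Argonaute, 1 of 15 deadenylation genes was called, CNOT1, the scaffold of the CCR4-NOT deadenylase that TNRC6A recruits, 1.46-fold higher (log2 0.55 ± 0.09 SE). PABPC1, the poly(A)-binding protein and the most abundant of that list, was at 0.35 ± 0.08 and missed the threshold with an adjusted p of 0.05002 from edgeR. DESeq2 and limma called it (adjusted p = 0.0161 and 0.0465), and over all alternatives its adjusted p ran from 0.0000624 to 0.991. Decapping and decay genes were called in opposite directions, 1 higher and 1 lower of 11. DDX6, the helicase that links CCR4-NOT to decapping, was 1.67-fold higher (0.74 ± 0.14), and EDC4, a scaffold of decapping and the most abundant of the list, was lower by log2 -0.65 ± 0.08. EDC4 had 1631 and 1725 counts (Scr), 2504 and 1991 (miR-23a KO), then 1212 and 1221 (miR-27a KO). With the same offsets EDC4 was at -0.39 and not called.

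Of the RISC loading chaperones 1 of 8 was called, FKBP5, a co-chaperone of HSP90, at 0.54 ± 0.10 (SE) as tested and at 0.35, not called, with the offsets, while HSP90AB1, the most abundant, was at -0.04 ± 0.12. None of the 6 other GW182 proteins and scaffolds was called, and MOV10, a helicase that binds Argonaute, was the most abundant of them at 0.01 ± 0.08, and at 0.24 with the offsets. Regulators of precursors had 0 calls among 8 tested, with KHSRP, a protein that binds the loop of some precursors, at -0.22 ± 0.08. LIN28B of the same list, which blocks maturation of let-7 precursors, is named after its values were seen. It had 229 and 522 counts (Scr), 500 and 2191 (miR-23a KO), then 260 and 253 (miR-27a KO). LIN28B stood 2.34 ± 0.63 (log2, SE) higher in miR-23a KO than in miR-27a KO, with both libraries above, and did not pass by edgeR (adjusted p = 0.338). DESeq2 called it with an adjusted p of 0.00509, and edgeR did with GC content and length offsets (adjusted p = 0.0267). The estimate lay between 1.30 and 2.92 in every alternative run, with an adjusted p up to 1.00.

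Of the miRNA turnover genes 2 of 7 were called, both higher, TSNAX and XRN2, a nuclear 5′ to 3′ exonuclease at 0.41 ± 0.08 (0.23 and not called with the offsets), and the abundant nuclease SND1 stood at -0.02 ± 0.11. TSNAX, a subunit of the C3PO nuclease, had the largest value of the 68 at 2.93 ± 0.33, from 18 and 27 counts in Scr to 163 and 228 in miR-27a KO, with 33 and 249 in miR-23a KO. A read-through gene, TSNAX-DISC1, contains TSNAX sequence and had 280 and 326 counts (Scr), 303 and 235 (miR-23a KO), then 245 and 202 (miR-27a KO). The sum of both was 298 and 353 in Scr and 408 and 430 in miR-27a KO, and how reads were divided between the genes was not tested. Of the PIWI proteins, the germline branch of the Argonaute family, only PIWIL2 passed the filter, with 31 and 41 counts (Scr), 12 and 32 (miR-23a KO), then 18 and 23 (miR-27a KO), and it was not called.

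**Figure D4:**
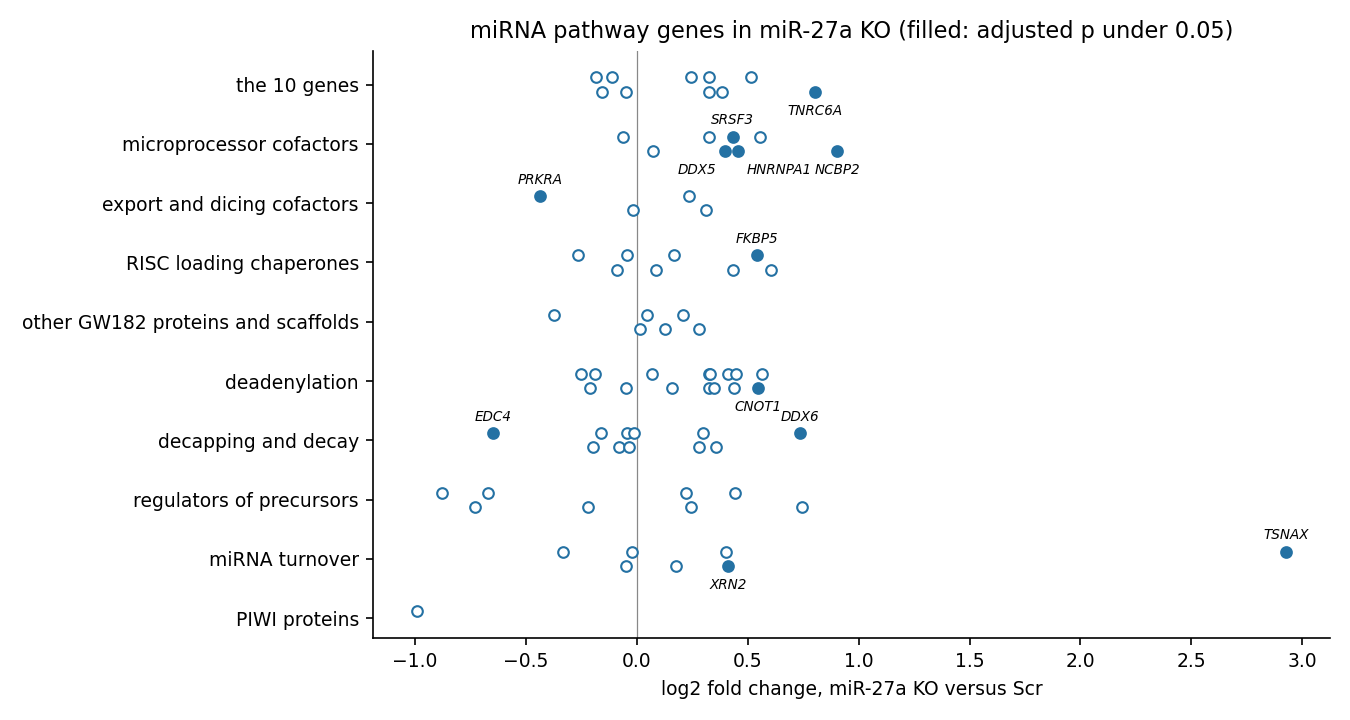
Fitted log2 fold change in miR-27a KO versus Scr for the 10 genes and for the tested genes of the 9 wider lists, with a circle for each gene, filled and named where the edgeR adjusted p is under 0.05. TNRC6A is the filled circle of the 10 genes at 0.80, and TSNAX at 2.93 stands far from the rest.

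In miR-27a KO versus Scr the GC content and length offsets kept 5 of the 11 wider calls, NCBP2, CNOT1, DDX6, PRKRA and TSNAX, and added PABPC1 and DIS3L2, an exonuclease of uridylated precursors. That fit called 15.8% of all genes. With no filter on low counts 8 were kept, without DDX6, PRKRA and XRN2, and 5.26% of all genes were called. The fit of all 6 libraries called 0.452% of all genes. With all 6 libraries in 1 model 0 of the 68 were called, and only TSNAX (1 gene) without miR-27a KO replicate 1 and again without replicate 2, where 2.96% and 2.29% of all genes were called. Without Scr replicate 1 or 2 there were 36 or 41, where 39.1% or 50.1% of all genes were called.

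The tested genes with the log2 CPM closest to a member over the 6 libraries were listed for DROSHA, DICER1 and AGO2. For DROSHA they were DBT, a subunit of the branched-chain keto acid dehydrogenase, PPFIA1, a liprin of focal adhesions, and MED1, a Mediator subunit. For DICER1 they were USP48, a deubiquitinase, ARPP19, an inhibitor of the phosphatase PP2A, and DDX3X, an RNA helicase. E2F3, a cell cycle transcription factor, RALGAPB, a subunit of a Ral GTPase-activating complex, and N4BP1 were nearest to AGO2. Pearson's r was at least 0.998 for all 9, over only 6 libraries, which differ in their length and GC trends, so the values are given as a description only.

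The labels name HepG2 as the line and describe the cell type in words that do not match it, so markers were read in each library. Hepatocyte markers, all 10 listed, summed to 26986 and 35446 CPM (Scr), 30482 and 31778 (miR-23a KO), then 19935 and 19609 (miR-27a KO), with ALB or SERPINA1 the most abundant. Fibroblast markers (3 of 7 listed) summed to at most 30.1 CPM, nearly all of it PDGFRB, and endothelial markers (4 of 5 listed) to at most 7.45, led by PECAM1. Leukocyte markers (5 of 5 listed) summed to 377 and 412 CPM (Scr), 132 and 189 (miR-23a KO), then 1501 and 1564 (miR-27a KO), nearly all of it LYZ, while PTPRC stayed at or below 0.134 CPM. In both miR-27a KO libraries ALB, AFP and PDGFRB were below both Scr libraries and LYZ was above, while APOA1, SERPINA1 and HNF4A of the hepatocyte list were above. Their part in the TNRC6A result was not tested.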

How the data were processed

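RNA-seq libraries of HepG2 cells in 3 groups (2 each, replicate numbers from the labels) were analysed from 1 deposited table. Its columns are headed as FPKM, but their values, many of them whole and with totals that differ between libraries, were taken as the authors' estimated counts. This was inferred from the values alone. The submitters' notes name HISAT, StringTie, Cufflinks and GATK without versions, and the program that made the counts, the build and the strand setting are not given in the sources used here. The labels and the methods name different TruSeq kits. Estimated counts were rounded and fitted with edgeR 4.0.16 in R 4.3.3 (filterByExpr, TMM, quasi-likelihood test), each pair of groups alone, with Benjamini-Hochberg adjustment over all genes tested and a call at an adjusted p under 0.05. Alternatives used median-ratio factors, DESeq2 1.42.0, limma 3.58.1 (log2 CPM, prior count 2), no filter, all 6 libraries, a replicate block, GC content and length offsets (loess, span 0.5, degree 2) and each library left out. Scripts were tested on simulated data. Summaries used Python 3.11.15, pandas 2.3.3, SciPy 1.17.1 and matplotlib 3.10.9.

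Lengths and GC content came from the longest protein-coding GENCODE transcript matched by Entrez identifier (17624 of 20026 genes), and 3′-UTRs from the transcript of the gene with the longest one. No miRNA or mitochondrial gene was analysed here. No AGO2 sequence is printed, and sites in AGO3 are given as counts.

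The members and lists were chosen with earlier results of these data known. Named genes were all 10 members, up to 3 called genes with the smallest adjusted p per wider list and comparison, the gene with the highest mean count of each list, and for DROSHA, DICER1 and AGO2 the 3 tested genes with the highest Pearson r. Genes that share sequence with a named gene (TSNAX-DISC1, POLR1C, TRMT2A), SRSF3, LIN28B, DIS3L2, HSPA8 and MBNL1 were named after their values were seen.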

Additional observations from a re-analysis of the deposited data

Results flagged for a closer look

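KHSRP was above Scr in both miR-23a KO libraries and below Scr in both miR-27a KO libraries. Its counts were 6586 and 6548 (Scr), 7844 and 8346 (miR-23a KO), then 6434 and 6410 (miR-27a KO). The fitted log2 fold changes against Scr were 0.27 for miR-23a KO and -0.22 for miR-27a KO, both against the same Scr libraries. With GC content and length offsets the miR-27a KO value was 0.05, and without miR-23a KO replicate 1 the miR-23a KO value was 0.04. Compared directly, miR-23a KO stood 0.44 ± 0.36 (SE) above miR-27a KO with an adjusted p of 0.824 by the edgeR quasi-likelihood test, so the difference did not pass. Such a split was found in 1.67% of 13557 tested genes (226). DIS3L2 of the wider lists was split the other way, as were 4.10% of genes (556), with -0.12 for miR-23a KO and 0.22 for miR-27a KO against Scr. None of the 10 miRNA processing and Argonaute genes showed a split of either kind. Groups of 2 libraries were too small for a search for single outlying libraries.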

How the results depend on the processing

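In miR-23a KO versus Scr no alternative that kept all 4 libraries of the pair called any of the 10 genes or of the 68 wider genes. AGO2 turned to -0.43 with limma, -0.42 with the replicate block, -0.31 with GC content and length offsets and -0.48 with both, and DGCR8 to 0.0034 with the offsets and 0.0019 with offsets and block. In miR-27a KO versus Scr the members called were 0 with no filter and 0 with all 6 libraries in the model. The count was 1 in the other 6 alternatives that kept the 4 libraries. The wider genes called came to 0 when all 6 libraries were modelled and to 7 under the GC content and length offsets. These fits called 0.452% and 15.8% of all genes. The median log2 fold change of the 10 genes was 0.30 with no filter, 0.17 with the offsets and 0.18 with offsets and block. The offsets turned DGCR8 to 0.038, TARBP2 to 0.21, KHSRP to 0.050 and SND1 to 0.16, offsets with block gave 0.037, 0.21, 0.052 and 0.16 for the same genes, and RAN turned to 0.0022 with no filter. In miR-23a KO versus miR-27a KO the wider genes called were 1 with DESeq2, 1 with the offsets (LIN28B in both) and 2 with offsets and block (LIN28B and TSNAX). These fits called 3.45%, 2.44% and 8.33% of all genes in that comparison. There DICER1, AGO3 and TNRC6A turned to -0.20, -0.064 and -0.25 with limma, to -0.19, -0.058 and -0.25 with the replicate block, to -0.30, -0.12 and -0.19 with the offsets, and to -0.35, -0.13 and -0.22 with offsets and block. The cause of these changes was not tested. The median of the 10 genes in miR-23a KO versus Scr was -0.16 with limma, -0.16 with the replicate block, -0.052 with the offsets and -0.052 with offsets and block. Leaving out each library in turn left the other group to set the spread, with the lone library assumed to vary like it. Members called then ran from 0 to 4 in miR-23a KO versus Scr, 0 to 6 in miR-27a KO versus Scr and 0 to 9 in miR-23a KO versus miR-27a KO, and wider genes called from 0 to 16, 1 to 41 and 0 to 54. The median of the 10 genes ran from -0.79 to 0.39, from 0.21 to 0.28 and from -1.12 to 0.15 in the same order. In miR-23a KO versus Scr the values ran from -0.76 to 0.73 for DROSHA, -0.82 to 1.495 for DICER1, -0.47 to 1.29 for TARBP2, -0.82 to 0.33 for AGO1, -1.96 to 0.99 for AGO2, -0.86 to 0.40 for AGO3, -2.22 to 0.38 for AGO4 and -0.42 to 1.56 for TNRC6A. In miR-27a KO versus Scr they ran from -0.13 to 0.050 for XPO5, -0.28 to 0.089 for TARBP2, -0.40 to 0.089 for AGO3, -0.087 to 0.069 for RAN, -0.18 to 0.11 for HSP90AB1, -0.019 to 0.065 for MOV10 and -0.13 to 0.11 for SND1. In miR-23a KO versus miR-27a KO they ran from -1.08 to 0.36 for DROSHA, -1.34 to 0.93 for DICER1, -0.42 to 1.40 for TARBP2, -2.20 to 0.69 for AGO2, -0.67 to 0.53 for AGO3 and -1.22 to 0.70 for TNRC6A. Differences between same-numbered libraries correlated at r = 0.15, 0.01 and 0.02 over 14164 genes in the 3 comparisons, and no label ties the numbers to a shared clone or batch, so the numbers were not taken as pairs. With the replicate block the members called were 0, 1 and 0 and the wider genes called 0, 10 and 0, where in miR-27a KO versus Scr DDX5 and HNRNPA1 were no longer called and HSPA8 was added. Offsets with block called 9 wider genes there, and 18.8% of all genes. Compared with the offsets alone, EDC4, HSPA8, LIN28B and MBNL1 were added and CNOT1 and DIS3L2 were lost.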
